A study of Rattus norvegicus with 15 samples.

Results

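The Ectodysplasin pathway was examined in developing rat molars through 8 genes: Eda, Edar, Edaradd, Traf6, Chuk, Ikbkb, Ikbkg and Nfkbia. These genes were looked up by symbol, through the mouse Ensembl identifiers listed with the study, in the salmon count table of 14185 genes. A row was found for 7 of the 8. Nfkbia, the inhibitor that holds NF-kappaB in the cytoplasm, had no row and was not analysed here.

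Ectodysplasin is a signal of the tumour necrosis factor family that ectodermal organs (teeth, hair, sweat glands) use while they are shaped. The ligand Eda binds the receptor Edar, the receptor recruits the adaptor Edaradd, and Traf6 passes the signal to a kinase complex made of Chuk (IKK alpha), Ikbkb (IKK beta) and the regulatory subunit Ikbkg (NEMO). The complex marks Nfkbia for degradation and so frees NF-kappaB to enter the nucleus. In teeth Edar is best known from the enamel knot, the epithelial signalling centre of the cap stage, and loss of Eda, Edar or Edaradd in the mouse leaves small molars with few cusps. The study places Eda, Edar, Edaradd and Chuk among the genes whose mutation alters molar shape.

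RNA was sequenced from single first molar germs of wild type DA/HanRj rat embryos, with no treatment, at 3 stages of 5 teeth each: E15 (E15.5 in the labels), E17 (E17.5 in the labels) and E18. E15 and E17 are the bud and cap stages in the study. The labels give lower first molars at E18 and only the first molar at E15 and E17. Each library was 1 tooth, and all teeth came from different embryos, except for E17 replicates 1 and 2, a left and a right tooth from the same embryo. Each stage carries a title code of its own, so that stage and preparation under such a code cannot be told apart. The study describes rat teeth of E15 and E17 only. The E18 libraries were deposited later, with different processing notes. Differences of E18 from the other stages thus cannot be told apart from differences between the deposits. A germ holds epithelium and mesenchyme together, and in such bulk samples fewer cells of a type and less RNA per cell cannot be told apart.

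Libraries held 10993502 to 27571541 counts. Levels are given as CPM (the usual normalised count, divided by the library total after TMM scaling), in which 1 read count was worth 0.0361 to 0.0912. CPM are not corrected for gene length, so levels of different genes are not compared with each other. E18 replicate 3 stood apart from the other E18 teeth, with a mean correlation across genes of 0.882 with them, against 0.953 to 0.959 for those 4. E15 replicate 3 stood apart less far, with 0.951 against 0.969 to 0.978 for the other E15 teeth. Its counts differed from theirs by a chi-square per gene of 45.4 to 67.4, where those 4 differed among themselves by 7.02 to 12.4. Changes of the members that were lost, gained or moved by over 1.5 times without E18 replicate 3 are given with and without it. Epithelial markers were present in all libraries: the summed level of 4 of them (Trp63, Perp, Lama3 and Cdh3) was 218 to 350 CPM at E15, 474 to 561 CPM at E17 and 599.7 to 797 CPM at E18. The summed level of 7 of 9 mesenchymal markers, Msx1 and Pdgfra among them, moved the other way, from 2432 to 2703 CPM at E15 to 1929 to 2060 CPM at E17 and 1607 to 1906 CPM at E18. Pdgfra was the largest part of this sum, with means of 844, 700 and 561 CPM. Not every marker followed the sum, as Barx1 had means of 200, 173 and 199 CPM. No matched marker of these lists was at 0 in any library. Of 4 bone markers 2 were matched, Spp1 and Dmp1, with a summed level of 1.92 to 12.0 CPM at E15, 3.18 to 59.7 CPM at E17 and 7.39 to 30.4 CPM at E18. The markers listed for skeletal muscle, cartilage, endothelium, leukocytes and red cells were not matched to a row and were not checked here.

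Edar was the member that rose in all 3 comparisons between stages, and the sequence just before its start is shown for that reason. The stretch is taken from RefSeq on the rat build GRCr8, chr20:27209673-27209880, on the minus strand, and is 208 bases long with a GC content of 55.3%. It is printed 5′ to 3′, ending at the base before the annotated gene.

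Edar upstream: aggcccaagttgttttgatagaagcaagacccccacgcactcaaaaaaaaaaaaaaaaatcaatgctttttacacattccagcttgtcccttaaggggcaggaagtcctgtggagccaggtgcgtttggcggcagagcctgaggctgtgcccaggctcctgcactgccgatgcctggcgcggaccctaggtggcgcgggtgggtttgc

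The NF-kappaB motif (GGGA, any 4 bases, then CC) and the LEF1/TCF core CTTTG were searched on both strands, and neither was found in this window, so that no base stands in capitals. Of 33469 rat promoter windows of the same length, 13.7% held the first motif and 43.0% the second. This says only that these letters are not in this window. The other members with an entry in the promoter table were Eda, Chuk, Ikbkg and Nfkbia. The Chuk window of 250 bases was searched too. It held 2 matches of the LEF1/TCF core and 0 of the NF-kappaB motif, where 48.2% and 16.4% of windows of that length held them. Eda, Nfkbia and Ikbkg had 7, 15 and 0 bases before the gene in their entries and were not searched.

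Between bud and cap, E15 and E17, the receptor and its adaptor rose and the other 5 members did not pass the test. The question was which steps of the pathway change in level when the tooth germ passes from bud to cap. Edar rose 1.78-fold and Edaradd 1.47-fold. Thus 2 of 7 members were higher at E17 (edgeR, adjusted p under 0.05), where 18.3% of 12627 genes tested differed in either direction, 11.3% higher and 7.02% lower. The E15 and E17 teeth did not overlap for these 2 members, nor did they for 16.2% of all genes. The median log2 fold change of the 7 members was 0.05, and that of all genes tested was −0.01. Between E17 and E18 again 2 of 7 members were higher, Edar (1.86-fold) and Eda (1.39-fold), where 2.54% of 12718 genes tested differed, 1.91% higher and 0.629% lower. Groups did not overlap for these 2 members, nor for 6.76% of all genes. The median was 0.20 for the members and −0.02 for all genes. Between E15 and E18, Edar (3.31-fold) and Edaradd (2.09-fold) were higher, 2 of 7 members, where 21% of 12661 genes differed, 14.2% higher and 6.73% lower. No member was lower past the threshold in any of these comparisons. The comparisons share libraries of the stages, and their values are set side by side only.

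**Figure D1:**
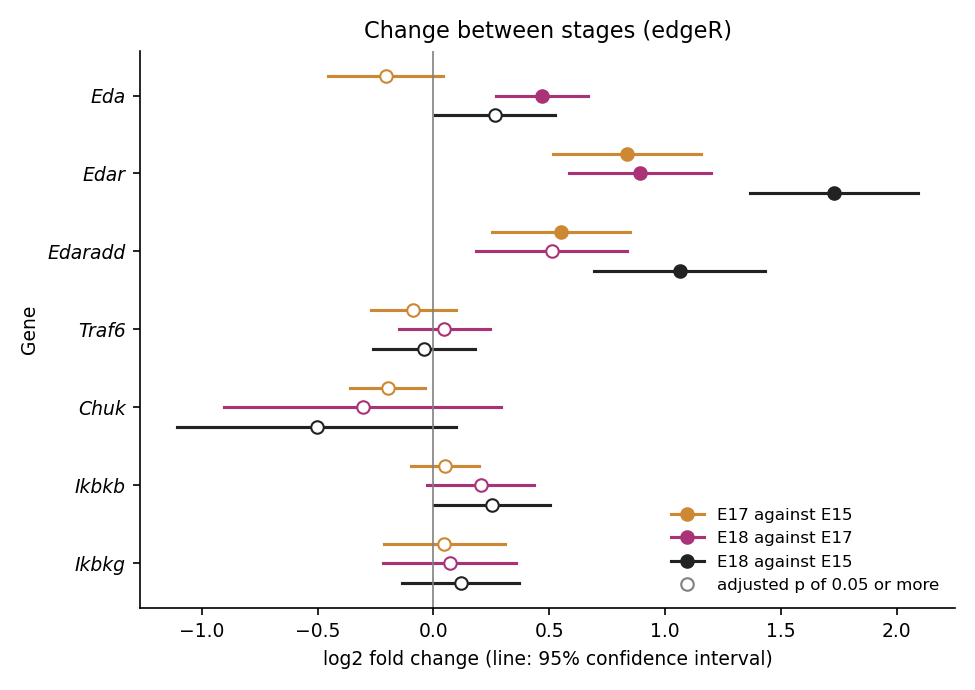
Log2 fold change of each member (x axis) between stages, with the 95% confidence interval of the edgeR fit as a line. Filled points passed an adjusted p of 0.05, as Edar did in all 3 comparisons (0.84, 0.89 and 1.73), and the points of Traf6, Chuk, Ikbkb and Ikbkg are open in all 3.

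The ligand Eda had its lowest mean at the cap stage. At E15 the 5 teeth had 32.8, 26.8, 22.9, 23.2 and 30.7 CPM. At E17 they had 22.0, 23.1, 27.8, 22.6 and 22.5 CPM, and at E18 30.8, 33.6, 34.1, 31.4 and 33.5 CPM. All E18 teeth lay above all E17 teeth, whereas the E15 teeth spread over the range of both later stages.

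The means were 27.3 ± 4.401 CPM at E15, 23.6 ± 2.40 CPM at E17 and 32.7 ± 1.46 CPM at E18 (SD, n = 5 teeth each). Eda rose by 0.47 ± 0.09 on the log2 scale from E17 to E18 (SE, edgeR adjusted p = 0.0223). The change from E15 to E17 was −0.21 (95% confidence interval −0.45 to 0.04, edgeR adjusted p = 0.244) and that from E15 to E18 was 0.27 (0.01 to 0.53, edgeR adjusted p = 0.140), and neither passed. The rise from E17 to E18 lay close to the threshold. It passed in 4 of the 10 fits that left out 1 library and did not pass without E17 replicate 1, 2, 4 or 5 or without E18 replicate 2 or 5. It did not pass either when the counts of both teeth of the shared E17 embryo were summed (0.45, edgeR adjusted p = 0.0560), and over all alternatives its adjusted p ranged from 0.000769 to 0.0684.

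The receptor Edar rose at each step. The 5 teeth of E15 had 5.9, 4.6, 5.1, 5.2 and 6.8 CPM, from 57 to 145 counts. Those of E17 had 10.8, 9.1, 9.4, 10.98 and 9.1 CPM, and those of E18 had 15, 22.7, 19.0, 19.9 and 15.1 CPM. No tooth of one stage overlapped with a tooth of another.

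From 5.54 ± 0.85 CPM at E15, Edar reached 9.87 ± 0.92 CPM at E17 and 18.3 ± 3.30 CPM at E18 (SD, n = 5). The log2 fold change was 0.84 ± 0.15 from E15 to E17 (SE, edgeR adjusted p = 0.00171), 0.89 ± 0.14 from E17 to E18 (edgeR adjusted p = 0.00776) and 1.73 ± 0.17 from E15 to E18 (edgeR adjusted p = 4.02e-05). Each of these calls held in all 10 fits that left out 1 library and in the other alternatives run. E18 replicate 3 lay near the other E18 teeth for Edar, by 0.09 on the log2 scale.

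The adaptor Edaradd, which joins Edar to the Traf proteins, also had higher means at the later stages. Its levels were 9.9, 8.4, 9.5, 6.8 and 10.1 CPM in the E15 teeth. They were 12.9, 11.1, 14.1, 14.6 and 12.9 CPM at E17 and 17.45, 20.6, 13.7, 18.2 and 23.3 CPM at E18. Every E17 tooth lay above every E15 tooth, and the E18 teeth lay above the E17 teeth except for replicate 3, the lowest of E18.

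Means were 8.96 ± 1.35 CPM at E15, 13.1 ± 1.35 CPM at E17 and 18.7 ± 3.62 CPM at E18 (SD, n = 5). Edaradd rose by 0.55 ± 0.14 on the log2 scale from E15 to E17 (SE, edgeR adjusted p = 0.0137) and by 1.06 ± 0.17 from E15 to E18 (edgeR adjusted p = 0.000968). Both calls held in all 10 fits without 1 library. From E17 to E18 the difference of 0.51 ± 0.15 did not pass (edgeR adjusted p = 0.111). Without E18 replicate 3 it was 0.60 and passed (edgeR adjusted p = 0.00926).

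Traf6, the ubiquitin ligase between the receptor complex and the kinases, showed no difference beyond the spread between teeth. It ranged from 28.2 to 34.7 CPM at E15, from 27.4 to 32.9 CPM at E17 and from 27.9 to 34.0 CPM at E18. The ranges of the 3 stages overlap almost whole. The log2 fold changes were −0.09 (95% confidence interval −0.27 to 0.10), 0.05 (−0.15 to 0.24) and −0.04 (−0.26 to 0.18, and −0.01 without E18 replicate 3) from E15 to E17, E17 to E18 and E15 to E18, so that at these stages a change of more than 0.27 on the log2 scale lies outside all 3 intervals.

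**Figure D2:**
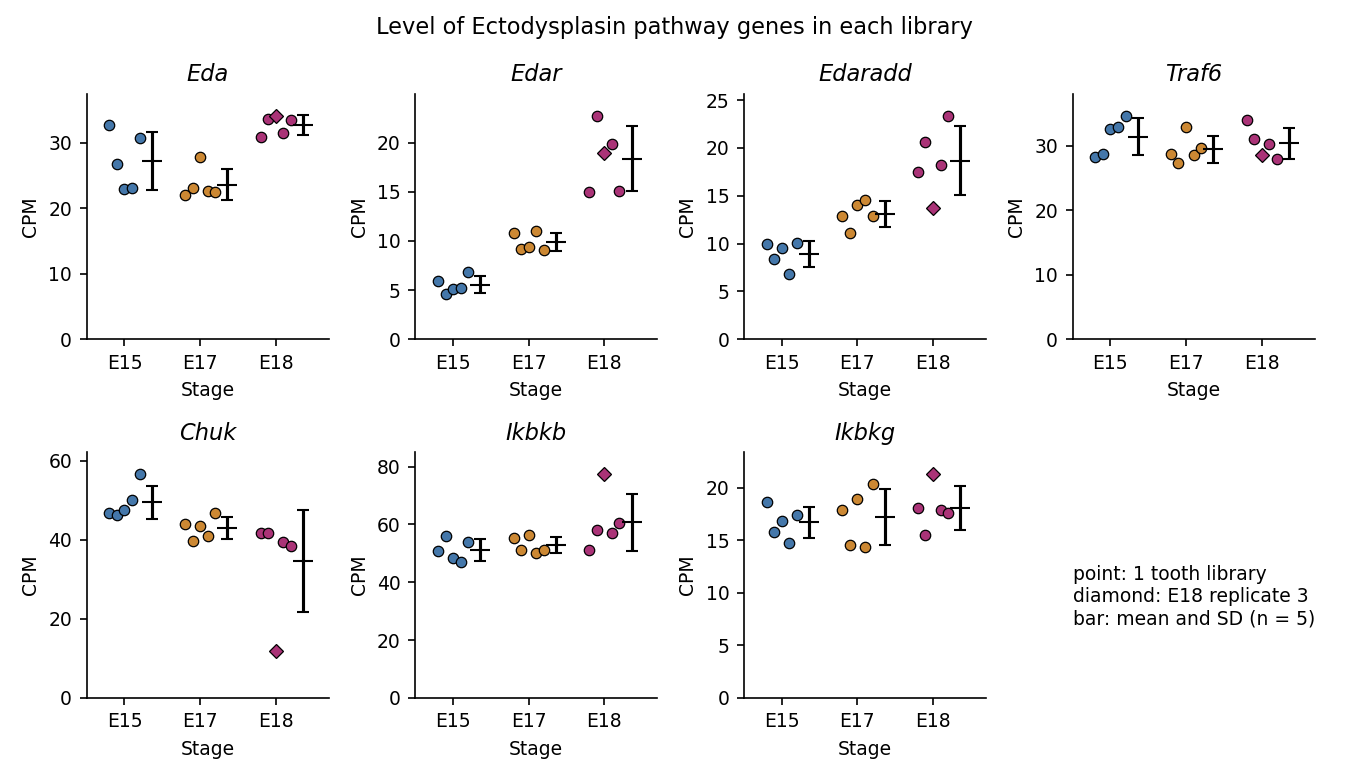
CPM (y axis, from 0) of the 7 members in each tooth library by stage, with the mean and SD (n = 5) beside the points and E18 replicate 3 drawn as a diamond. The Edar points of the 3 stages do not overlap, and Chuk of E18 replicate 3 lies at 11.8 CPM, far below the other E18 teeth.

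Among the kinases, Chuk had lower means at the later stages. It had 46.7, 46.3, 47.6, 49.99 and 56.6 CPM in the E15 teeth, 43.9, 39.6, 43.5, 40.9 and 46.9 CPM in the E17 teeth and 41.8, 41.6, 11.8, 39.5 and 38.5 CPM in the E18 teeth. All E18 teeth lay below all E15 teeth, which in this comparison is 1 of 3 members whose groups did not overlap, where 22.8% of all genes tested had groups that did not overlap. E18 replicate 3 lay far below all other teeth.

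The mean of Chuk was 49.4 ± 4.23 CPM at E15, 43.0 ± 2.82 CPM at E17 and 34.7 ± 12.8 CPM at E18 (SD, n = 5), the last being 40.4 ± 1.59 CPM without replicate 3 (SD, n = 4). The change from E15 to E18 was −0.50 ± 0.27 on the log2 scale and did not pass (SE, edgeR adjusted p = 0.221). Without E18 replicate 3 it was smaller, −0.28, with less spread, and passed (edgeR adjusted p = 0.0217). The changes from E15 to E17 (−0.20, edgeR adjusted p = 0.0843) and from E17 to E18 (−0.31, edgeR adjusted p = 0.606) did not pass with or without any library, and the second was −0.09 without E18 replicate 3.

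Ikbkb, the kinase best known for phosphorylating Nfkbia, ranged from 46.8 to 56.0 CPM at E15 and from 50.2 to 56.3 CPM at E17. At E18 the teeth had 51.1, 57.9, 77.3, 57.0 and 60.6 CPM, with replicate 3 the highest. Its log2 fold changes of 0.05, 0.20 and 0.25 from E15 to E17, E17 to E18 and E15 to E18 did not pass (edgeR adjusted p = 0.669, 0.384 and 0.145). Without E18 replicate 3 the latter 2 were 0.10 and 0.16 and did not pass either. Ikbkg, the subunit that holds the complex together, ranged from 14.8 to 18.7 CPM at E15, from 14.3 to 20.3 CPM at E17 and from 15.51 to 21.3 CPM at E18. Its changes of 0.05, 0.07 and 0.12 lay within the spread between teeth, and the latter 2 were 0.00424 and 0.06 without E18 replicate 3, the highest of E18.

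Ratios of 2 members within a tooth were compared next, since such a ratio does not depend on the scaling between libraries. There were 12 comparisons, 4 ratios over 3 pairs of stages, each with a two-sided exact permutation test of 5 against 5 teeth that cannot give a p below 0.00794, and Benjamini-Hochberg adjustment over the 12. A further ratio, of Nfkbia, could not be computed. As log2 ratios carry the lengths of both genes, only their change between stages is read.

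Receptor counts moved up relative to ligand counts. The log2 ratio of Edar over Eda was −2.47, −2.52, −2.17, −2.14 and −2.16 in the E15 teeth. It was −1.03, −1.33, −1.56, −1.04 and −1.30 at E17 and −1.04, −0.56, −0.84, −0.66 and −1.15 at E18. All teeth of E17 and E18 lay above all teeth of E15, while E17 and E18 overlapped.

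The mean rose from −2.29 ± 0.19 to −1.25 ± 0.22 (SD, n = 5), a difference of 1.04 (exact permutation p = 0.00794, adjusted p = 0.0317). The difference between E18 and E15 was 1.44 (exact permutation p = 0.00794, adjusted p = 0.0317). Both held in all 10 comparisons that left out 1 library. Between E17 and E18 the difference of 0.40 did not pass the adjustment (exact permutation p = 0.0397, adjusted p = 0.0595).

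For Edaradd over Edar the mean log2 ratio was 0.69 ± 0.21 at E15, 0.41 ± 0.14 at E17 and 0.02 ± 0.42 at E18 (SD, n = 5). The fall of the adaptor relative to its receptor from E15 to E18, −0.67, passed (exact permutation p = 0.0238, adjusted p = 0.0476), but held in 1 of the 10 comparisons without 1 library, that without E18 replicate 5, and was −0.54 without E18 replicate 3 (exact permutation, adjusted p = 0.0794). The other differences were −0.28 and −0.38 (exact permutation, adjusted p = 0.0667 and 0.104), and without E18 replicate 5 the second was −0.54 and passed (exact permutation, adjusted p = 0.0190).

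**Figure D3:**
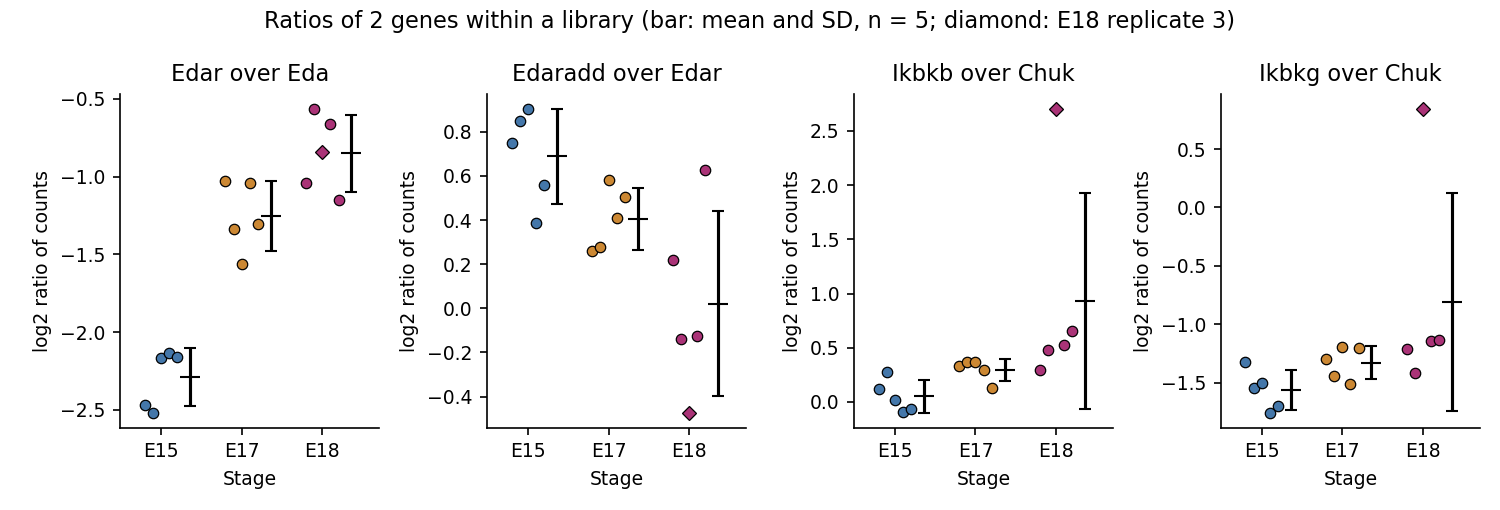
Log2 ratio of the counts of 2 members in each tooth (y axis) by stage, with mean and SD (n = 5) beside the points and E18 replicate 3 as a diamond. Edar over Eda is higher in all E17 and E18 teeth than in all E15 teeth, and E18 replicate 3 stands alone at 2.71 for Ikbkb over Chuk and at 0.85 for Ikbkg over Chuk.

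Among the kinase genes, Ikbkb counts had higher means relative to Chuk counts at the later stages. Neither gene passed on its own in any comparison with all libraries. The log2 ratio of Ikbkb over Chuk was 0.05 ± 0.15 at E15, 0.30 ± 0.10 at E17 and 0.93 ± 1.00 at E18 (SD, n = 5). E18 replicate 3 alone had 2.71, and the other 4 E18 teeth had 0.29 to 0.65, still above all E15 teeth, whose highest value was 0.27. The difference was 0.25 from E15 to E17 (exact permutation p = 0.0159, adjusted p = 0.0381) and 0.88 from E15 to E18 (exact permutation p = 0.00794, adjusted p = 0.0317). Without E18 replicate 3 the latter was 0.44 (exact permutation, adjusted p = 0.0476). With all E18 teeth kept, it did not pass without any 1 of the 5 E15 libraries, although all E18 teeth still lay above all E15 teeth kept. In those tests the value of 2.71 in E18 replicate 3 also widens the permuted differences. The difference from E15 to E17 passed only without E17 replicate 5 among the 10 comparisons that left out 1 library.

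The difference from E17 to E18 was 0.63 and did not pass the adjustment (exact permutation p = 0.0397, adjusted p = 0.0595). It was 0.19 without E18 replicate 3, and it passed at 0.79 without E18 replicate 1 (exact permutation, adjusted p = 0.0238). For Ikbkg over Chuk the difference from E15 to E18 was 0.75 (exact permutation p = 0.0159, adjusted p = 0.0381). It fell to 0.34 without E18 replicate 3 and then did not pass (exact permutation, adjusted p = 0.0762), nor did it without any 1 of the E15 libraries. The value of E18 replicate 3, 0.85 for Ikbkg over Chuk, weighs in the latter tests too. From E17 to E18 it was 0.52 (exact permutation p = 0.143), 0.10 without E18 replicate 3, and passed at 0.67 without E18 replicate 2 (exact permutation, adjusted p = 0.0476).

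As epithelial marker levels rose over the stages, the ligand, receptor and adaptor were also set against them. The mean log2 CPM of the 4 epithelial markers was subtracted from the log2 CPM of each gene in the same tooth, and the differences were compared with two-sided exact permutation tests of 5 against 5, adjusted over the 9 comparisons. All 4 markers passed the test towards higher levels at E17 and at E18 than at E15 (edgeR), with medians of 0.88 and 1.24 on the log2 scale, where 11.3% and 14.2% of all genes were higher and the medians of all genes were −0.01 and −0.02. From E17 to E18 1 of the 4, Trp63, did so, where 1.91% of all genes did. Of the 7 mesenchymal markers 4 were lower at E17 than at E15 and 4 at E18 than at E15, with medians of −0.33 and −0.55, where 7.02% and 6.73% of all genes were lower. At E18 against E17 the count was 0 of 7, where 0.629% of all genes were lower.

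Relative to these markers Eda was lower at cap than at bud. Per library Eda changed by −0.21 from E15 to E17 and by 0.27 from E15 to E18, and neither passed (edgeR). The medians of the 4 markers were 0.88 and 1.24, so a gene that did not change per library would also fall on this measure. How many of all genes did so was not counted. The relative level of Eda was −1.24, −1.24, −1.83, −1.17 and −1.19 in the E15 teeth, −2.64, −2.33, −2.24, −2.59 and −2.42 at E17, and −2.24, −2.46, −2.11, −2.29 and −2.27 at E18. All teeth of the later stages lay below all E15 teeth, and E17 and E18 overlapped.

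The difference was −1.10 from E15 to E17 and −0.94 from E15 to E18 (exact permutation p = 0.00794, adjusted p = 0.0179 for both), and both held in all 16 alternatives. The difference of 0.17 from E17 to E18 did not pass (exact permutation p = 0.135, adjusted p = 0.173). It passed at 0.22 with Perp left out of the markers (exact permutation, adjusted p = 0.0357).

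For Edar the relative level ranged from −3.98 to −3.29 at E15, from −3.79 to −3.62 at E17 and from −3.41 to −2.95 at E18. E17 lay within the range of E15, and all E18 teeth lay above all E17 teeth. The difference from E15 to E17 was −0.08 (exact permutation p = 0.532). It was −0.17 without E15 replicate 3, and its sign turned with Perp or Lama3 left out of the markers. The rise of Edar per library between bud and cap could thus not be told from that of the epithelial markers. From E17 to E18 Edar rose per library by 0.89, against 0.61 for Trp63, 0.49 for Perp, 0.08 for Lama3 and 0.09 for Cdh3. Relative to the mean of these 4 markers Edar rose by 0.57 (exact permutation p = 0.00794, adjusted p = 0.0179), in all 16 alternatives. The difference from E15 to E18 was 0.49 and did not pass the adjustment (exact permutation p = 0.0317, adjusted p = 0.0571). In the alternatives run it passed without E15 replicate 4 (0.56), without E18 replicate 5 (0.56) or with Perp left out of the markers (0.63), so that this call depended on which teeth and which markers entered the mean.

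**Figure D4:**
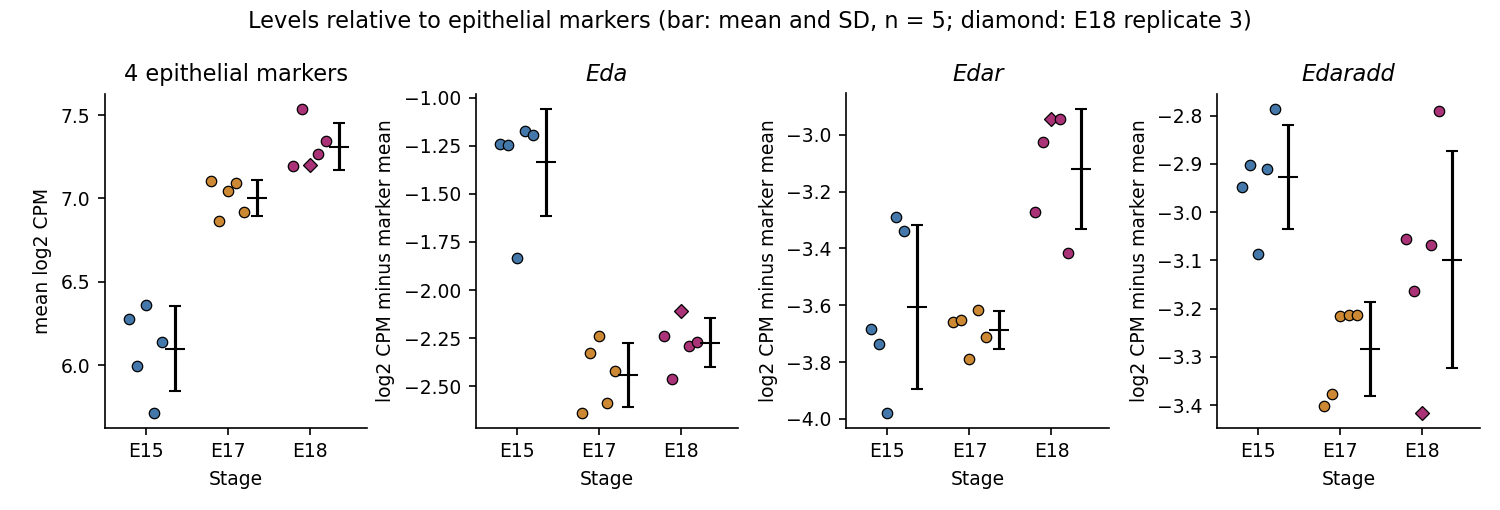
Mean log2 CPM of 4 epithelial markers (first panel) and log2 CPM of Eda, Edar and Edaradd minus that mean (other panels) in each tooth by stage, with mean and SD (n = 5) beside the points. Eda lies lower in all E17 and E18 teeth than in all E15 teeth, and Edar lies higher in all E18 teeth than in all E17 teeth.

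Edaradd relative to the markers ranged from −3.09 to −2.79 at E15, from −3.40 to −3.21 at E17 and from −3.42 to −2.79 at E18. All E17 teeth lay below all E15 teeth. The difference of −0.36 passed (exact permutation p = 0.00794, adjusted p = 0.0179) and did so in 15 of 16 alternatives, while per library Edaradd rose between these stages. The exception was the mean without Lama3 (−0.23, exact permutation, adjusted p = 0.1). The markers were not alike here. Per library Edaradd rose by 0.55, near Trp63 (0.51) and Cdh3 (0.59) and less than Perp (1.17) and Lama3 (1.28). From E17 to E18 the difference was 0.19 (exact permutation p = 0.127, adjusted p = 0.173), and 0.26 without E18 replicate 3, where it passed (exact permutation, adjusted p = 0.0179). From E15 to E18 it was −0.17 (exact permutation p = 0.175, adjusted p = 0.196), was −0.0929 without E18 replicate 3, and passed only without E18 replicate 5 (−0.25) or with Cdh3 left out of the markers (−0.34).

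Markers of the enamel knot, where Edar is known to be active, were higher in sum at each later stage, but not marker by marker. The summed level of 8 of them (Shh, Cdkn1a, Dkk4, Fgf3, Fgf4, Fgf9, Fgf20 and Slit1) was 31.3 to 45.9 CPM at E15, 94.0 to 125 CPM at E17 and 136 to 199 CPM at E18. From E15 to E17 4 of the 7 tested were higher (Shh, Cdkn1a, Fgf3 and Slit1), from E17 to E18 1 of 8 (Shh), and from E15 to E18 5 of 8, the former 4 and Fgf4 (edgeR, adjusted p under 0.05). Among all genes tested 11.3%, 1.91% and 14.2% were higher. Dkk4, Fgf9 and Fgf20 passed in no comparison, and their means did not follow the order of Edar, with 9.34, 6.60 and 8.16 CPM of Fgf9 at E15, E17 and E18. No marker was at 0 in every library, but Shh, Dkk4, Fgf3, Fgf4 and Fgf20 each had no count in at least 1 E15 library. Their part in the change of Edar was not tested.

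Among the remaining genes of the pathway in the study's list, with the related receptor Tnfrsf19, 2 genes passed the test, both from E15 to E18. Of 12 such genes 11 had a row, Map3k7 being the exception. They hold Eda2r, the receptor of the second Eda isoform, the adaptors Traf1, Traf2, Traf3 and Traf4, Tab2, and the NF-kappaB subunits Nfkb1, Nfkb2, Rela and Relb. None of the 11 passed from E15 to E17 or from E17 to E18 (edgeR, adjusted p under 0.05, and DESeq2), with 1 and 2 of them under 0.05 before adjustment. Their median log2 fold changes were 0.07 and 0.12. From E15 to E18 2 of the 11 were higher, a share of 18.2% near the 14.2% of all genes that were higher, with a median of 0.20.

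These 2 were subunits of the second, noncanonical branch of NF-kappaB signalling. Nfkb2 had 33.5 ± 3.12 CPM at E15, 38.9 ± 2.04 CPM at E17 and 45.6 ± 6.79 CPM at E18 (SD, n = 5), and rose by 0.45 ± 0.12 on the log2 scale from E15 to E18 (SE, edgeR adjusted p = 0.0183). All E18 teeth lay above all E15 teeth, the highest being E18 replicate 3 with 57.3 CPM. Relb, its partner, had 8.09 ± 1.69 CPM at E15, 9.59 ± 1.21 CPM at E17 and 11.9 ± 1.12 CPM at E18 and rose by 0.55 ± 0.16 (SE, edgeR adjusted p = 0.0330). Without that tooth the change of Nfkb2 was 0.36 and passed (edgeR adjusted p = 0.00899). The call for Nfkb2 was lost without E15 replicate 4 (0.42, edgeR adjusted p = 0.0514). That for Relb was lost without E15 replicate 3, 4 or 5 or without E18 replicate 2, 4 or 5, with adjusted p up to 0.0835 (edgeR). The other 9 genes had changes from −0.40 (Eda2r) to 0.30 (Traf2). Rela, the subunit that the canonical branch releases, had 73.7 ± 11.5, 78.9 ± 5.09 and 87.4 ± 10.6 CPM at E15, E17 and E18 and did not pass.

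Of 10 genes known to respond to Eda in ectodermal organs, 6 could be joined to a row. Between E15 and E17 4 of these 6 were higher, Shh, Foxi3, Fst and Sostdc1, where 11.3% of all genes tested were higher. Their median log2 fold change was 1.29, against −0.01 for all genes. Fst, the activin inhibitor follistatin, rose by 0.45 ± 0.10 on the log2 scale, from 34.4 ± 4.71 to 47.0 ± 3.79 CPM (SD, n = 5 teeth; SE of the change, edgeR adjusted p = 0.00588). From E17 to E18 2 of the 6 were higher (1.91% of all genes, medians 0.14 and −0.02), Shh and the transcription factor Foxi3, the latter by 0.79 (edgeR adjusted p = 0.00262), from 41.6 ± 5.06 to 72.0 ± 7.03 CPM. In a single fit over all 15 libraries Shh did not pass from E17 to E18 (1.35, edgeR adjusted p = 0.0931). Shh, Dkk4 and Fgf20 are also among the enamel knot markers above, so the counts of the lists are not independent.

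From E15 to E18 Shh, Foxi3, Fst and Sostdc1 were higher, again 4 of 6 (14.2% of all genes, medians 1.15 and −0.02). Foxi3 rose by 2.85 and Sostdc1, a secreted inhibitor of Bmp and Wnt signals, by 1.40 (edgeR adjusted p = 1.49e-05 and 0.0111). E15 replicate 3 had 251 CPM of Sostdc1, where the other E15 teeth had 88.0 to 108 CPM. Without it Sostdc1 rose by 1.74 from E15 to E17 and by 1.81 from E15 to E18, and both calls held (edgeR). E18 replicate 3 had 175 CPM of Sostdc1, below that E15 tooth, where the other E18 teeth had 278 to 402 CPM. Without E18 replicate 3 the change from E15 to E18 was 1.57 and passed (edgeR adjusted p = 0.00160). Dkk4 and Fgf20 passed in no comparison. Dkk4, a Wnt inhibitor, had no count in E15 replicate 3 and up to 12.1 CPM in the other E15 teeth. It had 0.928 CPM in E18 replicate 3 and 9.30 to 11.3 CPM in the other E18 teeth. Fgf20 stayed at or below 1.77 CPM in all teeth. These genes answer to other signals too, so that their counts are not a reading of Eda signalling.

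The genes whose profile over the 15 libraries lay nearest to those of the ligand, receptor and adaptor were then named among 343 genes of the study's lists with a mean of at least 1 CPM. Likeness was the mean absolute difference in log2 CPM after each gene was centred on its own mean. Edaradd lay nearest to Trp63 (0.11), the adhesion gene Nectin1 (0.17) and the ligand gene Wnt6 (0.18), where the median over the 343 genes was 0.42. Trp63 is a transcription factor of the dental epithelium and is also among the epithelial markers above. Edar lay nearest to Nectin1 (0.21), Trp63 (0.24) and the proteoglycan gene Sdc4 (0.24), with a median of 0.59. Eda lay nearest to the ligand gene Wnt7b (0.15), Grb2 and Notch2 (0.16 for both), with a median of 0.31. Eda varied little over the libraries, so that many genes lay close to it. The libraries share stage and tissue make-up, and these distances are descriptions.

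**Figure D5:**
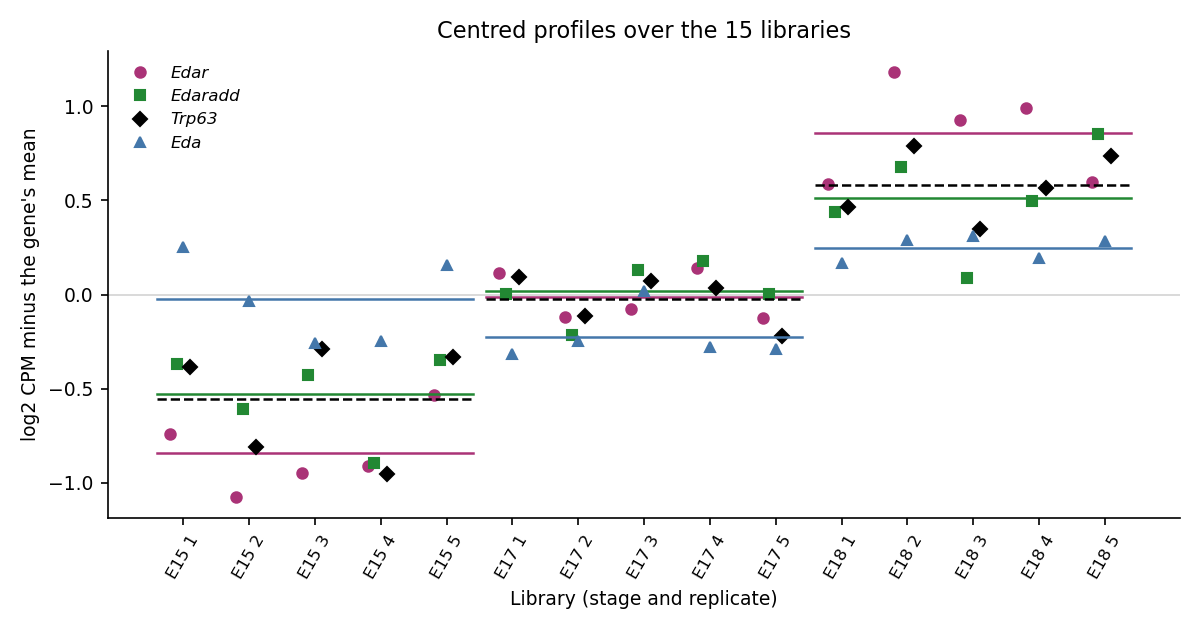
Log2 CPM of Eda, Edar, Edaradd and Trp63 in each library (x axis), centred on the gene's own mean over the 15 libraries, with horizontal lines at the stage means. Edaradd lies close to Trp63, Edar spans a wider range, and Eda is lowest at E17.

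No difference between left and right teeth was detected for the members. With stage in the model, 0 of 7 members differed between the 9 left and 6 right teeth (edgeR, adjusted p under 0.05, and DESeq2), where 0% of 13013 genes tested did and 0.914% had an unadjusted p under 0.05. With no difference between sides a share near 0.05 of all genes would be awaited under that unadjusted threshold. The test was thus strict in these data and could miss a difference. The lowest unadjusted p of a member was 0.218, for Ikbkb (edgeR). The log2 differences of left minus right ranged from −0.12 for Chuk (95% confidence interval −0.55 to 0.30) to 0.10 for Ikbkb (−0.07 to 0.28).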

How the data were processed

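Estimated counts per gene and library were made by the authors and deposited as 1 salmon table with mouse Ensembl identifiers. The submitters' processing notes name salmon 0.99.0 for E18 alone, and the build Rnor_6.0 for all libraries. The study's methods carry the classes of mouse genes over to rat orthologs from Ensembl, but how the salmon counts came to stand under mouse identifiers is not given in the sources used here, so near-identical or overlapping genes are uncertain. All counts were whole, so rounding changed no value. A second deposited table, of HTSeq counts for E15 and E17, was not used, since its rat identifiers are not paired with symbols.

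Changes between stages were tested with edgeR 4.0.16 (R 4.3.3, quasi-likelihood F test, TMM, filterByExpr) on all genes of the 2 stages compared, with Benjamini-Hochberg adjustment over all genes tested and a threshold of 0.05. SE derive from the F statistic. All 7 members passed the filter in every comparison. DESeq2 1.42.0 (Wald test), other scalings and filters, summed teeth and leaving out each library were alternatives. The fits were also run on simulated counts, as a check of the code only. Those counts held no tooth that stood apart and no shared embryo. Log2 CPM used a prior count of 2, and 0.5 was added to counts in ratios. No pair of libraries was close enough to be 1 library deposited again (chi-square per gene at least 6.33). Libraries held 10993502 to 27571541 counts, and p-values measure the spread between teeth.

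The members, gene lists and tests were chosen with earlier results of these data known. Named were all members, other pathway and response genes past the threshold, and the 3 nearest profiles each of Eda, Edar and Edaradd. Genes outside this rule (Rela, Eda2r, Traf2, Dkk4 and Fgf20) are named to place the ends of a range or a role, and were chosen after their values were seen. Some listed genes are not reported here and were left out of the marker mean, the marker counts and the profile comparison. With them in the marker mean, the call of Edar relative to the markers between E15 and E18 passes.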

Additional observations from a re-analysis of the deposited data

Results flagged for a closer look

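For the members, their ratios and their levels relative to epithelial markers, 42 groups of 5 teeth were examined. Of these, 5 held 1 tooth well outside the range of its group. About 2.1 would be flagged by chance alone, but the ratios and relative levels reuse the members' values. The groups are thus not independent, and no excess over chance is read from these counts. In 3 of the 5 flagged groups the tooth was E18 replicate 3, and Chuk was part of each value. Its Chuk level of 11.8 CPM lay below the 38.5 to 41.8 CPM of the other E18 teeth, its log2 ratio of Ikbkb over Chuk of 2.71 lay above 0.29 to 0.65, and its log2 ratio of Ikbkg over Chuk of 0.85 lay above −1.42 to −1.13. In this tooth Chuk deviated by −1.76 on the log2 scale from the mean of the other E18 teeth. The size of that deviation lay above that of 90.5% of 12900 genes, whose median was 0.45. The deviations of Edaradd (−0.53), Ikbkb (0.45), Ikbkg (0.30), Traf6 (−0.10), Edar (0.09) and Eda (0.08) were smaller.

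Eda stood apart in the other flagged teeth. E17 replicate 3 had 27.8 CPM of Eda, against 22.0 to 23.1 CPM in the other E17 teeth. E15 replicate 3 had a log2 level of Eda relative to epithelial markers of −1.83, against −1.24 to −1.17 in the other E15 teeth. Without this library the difference of Eda relative to the markers between E15 and E17 was −1.23, against −1.10 with it.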

How the results depend on the processing

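Edar (3 comparisons) and Edaradd (E15 to E17 and E15 to E18) kept direction and call under all alternatives run, which included other scalings, filters, DESeq2 and each library left out. Edar over Eda from E15 to E17 and from E15 to E18 and Edar relative to epithelial markers from E17 to E18 did so too. Eda relative to these markers also did so from E15 to E17 and from E15 to E18. Per library, however, Eda passed in neither comparison, and a gene without change would also fall on this measure as the markers rose.

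The number of members that changed from E17 to E18 was 1 with both teeth of the shared E17 embryo summed and 1 to 3 with 1 library left out. For the other pathway genes the range without 1 library was 0 to 1 from E15 to E17 and 0 to 2 from E15 to E18, the latter count being 1 without TMM (Relb 0.55, adjusted p = 0.0511, edgeR) and 3 in a fit over all 15 libraries. Eda response genes from E17 to E18 numbered 1 in a fit over all 15 libraries. With 1 library left out, the log2 ratio of Edaradd over Edar differed by −0.82 to −0.54 from E15 to E18 and by −0.54 to −0.26 from E17 to E18. That of Ikbkb over Chuk differed by 0.21 to 0.30 from E15 to E17, by 0.44 to 1.04 from E15 to E18 and by 0.19 to 0.79 from E17 to E18. That of Ikbkg over Chuk differed by 0.34 to 0.90 from E15 to E18 and by 0.10 to 0.67 from E17 to E18. With the teeth summed, Edaradd over Edar from E15 to E18 (−0.67, exact permutation, adjusted p = 0.0571) and Ikbkb over Chuk from E15 to E17 (0.23, exact permutation, adjusted p = 0.0680) did not pass.

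Relative to epithelial markers with 1 library left out, Edar differed by 0.39 to 0.56 from E15 to E18, and Edaradd by 0.11 to 0.26 from E17 to E18 and by −0.25 to −0.0929 from E15 to E18. Leaving out Perp put Eda from E17 to E18 (0.22) and Edar from E15 to E18 (0.63) past the threshold, and leaving out Cdh3 did so for Edaradd from E15 to E18 (−0.34). Edaradd from E15 to E17 was not past it without Lama3 (−0.23). Leaving out Perp or Lama3 turned the sign of Edar from E15 to E17, to 0.0114 and 0.0501. The sign of 2 further changes near 0 turned without 1 library: Ikbkg from E15 to E17 (−0.0202 to 0.10) and Sostdc1 from E17 to E18 (−0.00542 to 0.23, with −0.00106 without E18 replicate 2). The number of all genes that changed from E17 to E18 was 323, against 635 with DESeq2 and 141 to 713 with 1 library left out.

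No paired analysis was possible because replicate numbers follow the order of deposit and pair no teeth across stages. The comparison with the HTSeq counts was not run, since no table paired their identifiers with symbols. Edar had 57 to 145 counts per library at E15, so that counting error weighs most there. Each stage rests on 1 title code, and the cause of the deviation of E18 replicate 3 was not tested.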
